A study of Homo sapiens with 36 samples.

Results

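Cells of UM-SCC-1, a tumour line established from squamous carcinoma of the head and neck, carry RNA peaks of N6-methyladenosine (m6A) that the authors listed as changed for the RBM33 shRNA groups and not for the ALKBH5 shRNA groups. The 2 RBM33 tables of changed peaks hold 5338 rows. Of these, 3643 share no base on the same strand with any of the rows of the 2 ALKBH5 tables, and they are called RBM33-only peaks here. They came to 1350 rows for RBM33 shRNA-1 and 2293 rows for RBM33 shRNA-2, of 37709 rows in all 4 tables. They cover 3346 distinct regions in genes of 2403 names. The other 1695 RBM33 rows overlap an ALKBH5 row and serve as the comparison set. The choice rests on the listed coordinates and therefore on the authors' thresholds in both contrasts. Because the peaks were chosen by these measured effects and p-values, both are described below and not tested.

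m6A is the most abundant internal modification of messenger RNA. A methyltransferase complex around METTL3 and METTL14 writes it, typically on the adenosine of a GGAC-like motif, most often near stop codons and along the last exon. ALKBH5 and FTO remove it, and reader proteins such as the YTH family bind it. RBM33 is an RNA-binding protein that the study's title names as a reader needed for demethylation by ALKBH5, and the lists compared here ask which peaks were listed for the RBM33 shRNA groups outside the ALKBH5 lists.

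All groups were UM-SCC-1 cells given a retrovirus and kept in 10 ug/mL blasticidin for 4 days. The groups were RBM33 scramble, RBM33 shRNA-1, RBM33 shRNA-2, ALKBH5 scramble, ALKBH5 shRNA-1 and ALKBH5 shRNA-2, each with 3 RNA-seq and 3 m6A-seq samples, 36 in all. The treatment text speaks of siRNA where the titles say shRNA, and the titles are followed. The labels number the samples but do not call them independent cultures. The tests therefore weigh a difference against the scatter among these samples, and that scatter may be technical. Both RBM33 tables share 1 scramble group and are given side by side, not as replication of each other.

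Sequence was printed for 7 peaks that fall within the windows of the RefSeq promoter table (GRCh38.p14), around an annotated transcript start, because only there are the bases under a peak at hand. The first 6 were taken by lowest p-value, and AMH was added after its values were seen. Capitals mark the bases under the peak, and each line runs 5′ to 3′ on the strand of the gene, with a negative effect for GNL3 and HIST2H3D and a positive one for the others. GNL3 (nucleostemin, a nucleolar GTPase) is shown at chr3:52686052-52686081, ZNF276 (a zinc finger protein) at chr16:89721542-89721571 and HIST2H3D (a histone H3 gene, H3C13 in RefSeq, minus strand) at chr1:149813652-149813681. BCL2L13 (a mitochondrial protein of the BCL2 family) is shown at chr22:17706531-17706810, RASAL2 (a Ras GTPase-activating protein) at chr1:178094124-178094153, MICALL1 (a Rab effector of endosome recycling) at chr22:37906298-37906327 and AMH (anti-Mullerian hormone) at chr19:2249073-2249352.
GNL3: ggaggcaggttgatgtgtTTGTGCTTCCTT
ZNF276: GCCTCGCTTCCAGCGCGCCGAGCGGAGCCT
HIST2H3D: ATGGCCCGTACTAAGCAGACTGCCCGCAAG
BCL2L13: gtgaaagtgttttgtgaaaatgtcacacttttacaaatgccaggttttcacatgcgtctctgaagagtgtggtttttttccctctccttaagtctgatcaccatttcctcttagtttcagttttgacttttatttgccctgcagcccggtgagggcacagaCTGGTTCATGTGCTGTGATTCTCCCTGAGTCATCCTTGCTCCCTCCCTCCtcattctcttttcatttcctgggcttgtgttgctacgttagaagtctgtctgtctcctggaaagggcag
RASAL2: gagacGCCGGCGGGGCTGAAGAAGGCGGCT
MICALL1: CCTGCCGGTCGGCGCCCGAGCTCGGAGCCG
AMH: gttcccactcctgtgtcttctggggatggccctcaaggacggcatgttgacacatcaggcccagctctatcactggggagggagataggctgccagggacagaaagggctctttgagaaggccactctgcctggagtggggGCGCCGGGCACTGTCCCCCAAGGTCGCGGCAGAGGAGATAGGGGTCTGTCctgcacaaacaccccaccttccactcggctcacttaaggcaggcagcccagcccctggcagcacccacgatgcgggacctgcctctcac

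The BCL2L13 peak lies 89 to 40 bases before the listed start of one of its RefSeq transcripts, inside the gene span, and the AMH peak lies 109 to 60 bases before the start that the promoter table gives for AMH. Neither peak reaches that start. The promoter table and the gene spans used below do not place the AMH start at the same base. Across the series' peaks, 57 RBM33-only rows in 50 genes overlap 53 of the 35116 windows of 300 bases around annotated starts. GGAC was found on the transcribed strand of 44 of these 53 windows (83.0%) and of 66.3% of all windows, and on the other strand of 67.9% against 66.1%. The longer GGACT, which contains GGAC, was found in 26.4% of the windows on the transcribed strand and in 25.3% of all windows, and on the other strand in 22.6% against 25.3%. Among the bases printed above, GGAC occurs on the transcribed strand of AMH and in no other of the 7, and GGACT in none. In AMH it lies only outside the capitals, so no base printed as under a peak belongs to a GGAC match. AMH and BCL2L13 are printed over 280 bases and the others over 30. These are matches of letters in a window and not measured methylation sites.

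The targeted genes were read first. RBM33 RNA stood at 217, 207 and 227 CPM (read counts scaled to the normalized library size) in the scramble libraries, at 191 and 204 CPM in the libraries labelled shRNA-1 and at 208, 199 and 214 CPM in those labelled shRNA-2. The groups overlap, and the log2 change of −0.10 (SE 0.06) did not pass the test (limma, adjusted p = 0.27). These groups are therefore called the libraries labelled RBM33 shRNA, and the RBM33 set stands for their comparison with the RBM33 scramble. ALKBH5 RNA was 109, 132 and 123 CPM in its own scramble and 84.7, 84.8, 75.1 and 89.6 CPM under its shRNAs, and it fell by 0.53 on the log2 scale (SE 0.08, adjusted p = 9.1e-05). In the RBM33 set, ALKBH5 RNA changed by −0.06 on the log2 scale (SE 0.08, adjusted p = 0.63).

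The RNA analysis used 15 libraries of 4493849 to 6733017 reads in listed genes, with 2 libraries for RBM33 shRNA-1, 2 for either ALKBH5 shRNA and 3 for each other group. Libraries of 1 group differed by more than counting noise (chi-square per degree of freedom 2.9 to 8.04), so none was merged. The squamous markers KRT5, KRT14, KRT17, KRT6A and TP63 were not among the listed genes. The other 5 of 10 summed to 176 to 220 CPM, nearly all of it DSP (median 193 CPM), while EPCAM, CDH1, SFN and ITGB4 had medians of 0.573 to 1.73 CPM. Of the markers of other cell types, COL1A1 had a median of 20.8 CPM, and all others listed had medians of at most 3.56 CPM. These levels do not show the squamous keratin programme that the label would lead one to look for, and no other cell type name is given here. In bulk RNA, fewer cells of a type and less RNA per cell cannot be told apart.

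Most RBM33-only peaks are listed with a higher m6A signal in the libraries labelled RBM33 shRNA than in the scramble. In the authors' deposited tables, 3113 of the 3643 peaks (85.5%) have a positive effect, meaning a higher m6A signal relative to scramble, and 530 have a negative one. The share was 85.1% in the shRNA-1 table and 85.7% in the shRNA-2 table. It was lower than among the RBM33 rows that overlap ALKBH5 rows (92.4% and 91.9% positive) and higher than in the ALKBH5 tables (64.7% and 72.5% of 13120 and 19251 rows). The authors' deposited tables end at unlike p-values, 0.000681 and 0.00108 for RBM33 against 0.00603 and 0.00826 for ALKBH5. The shares of the 2 targets are therefore not like for like, and the part of this limit was not tested. The authors' deposited effects are natural logs of a fold, and no effect closer to 0 than 0.5 is listed. Positive RBM33-only peaks have median effects of 1.149 (shRNA-1) and 1.144 (shRNA-2) in the authors' deposited tables, which are folds of 3.156 and 3.14. The medians of the negative peaks there are −0.9808 and −0.8888. The overlapping positive rows have medians of 0.9323 and 0.9163 in the same authors' deposited tables, below those of the RBM33-only peaks. The highest single effects lie in overlapping rows, at 8.599 (shRNA-1) and 8.731 (shRNA-2) against 4.99 and 5.118 for RBM33-only peaks in the authors' deposited tables. The median listed p-values over both signs are 0.000313 and 0.0004428 for RBM33-only peaks, against 0.0002524 and 0.0003501.

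**Figure D1:**
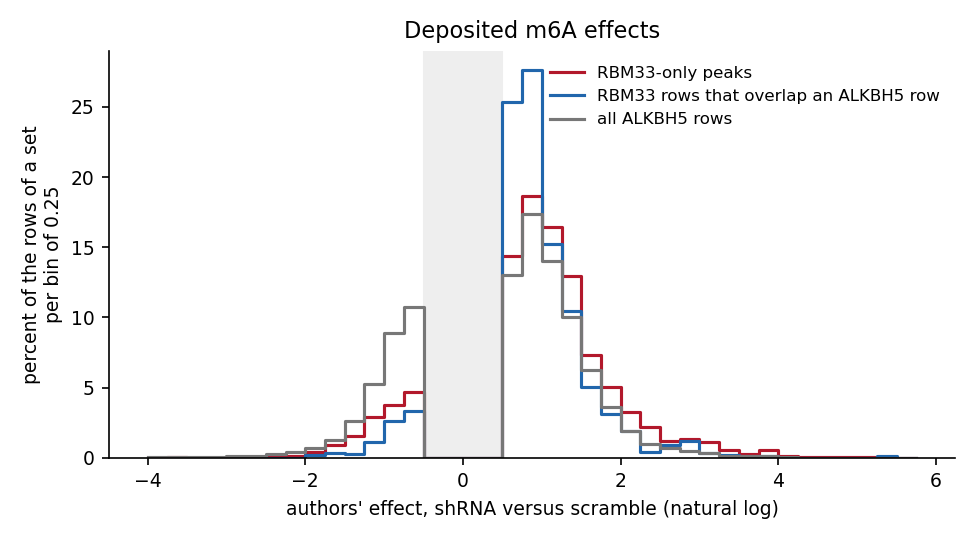
Authors' deposited effects (natural log, x axis) as the percent of the rows of a set per bin of 0.25 (y axis) for the 3643 RBM33-only peaks, the 1695 RBM33 rows that overlap an ALKBH5 row and all ALKBH5 rows. The grey band from −0.5 to 0.5 holds no row, and the RBM33-only line lies above the overlapping line in every bin from an effect of 1 to one of 4 and below it between 0.5 and 1.

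The peaks are narrow. Exactly 50 bases are covered by 97.0% of RBM33-only peaks, against 89.7% and 86.6% of the overlapping rows, and the widest covers 200 bases. A peak is split into 2 or more blocks, as on a spliced transcript, in 15.8% of cases, against 19.4% and 20.6% of the overlapping rows. Such split peaks make up 17.2% of the positive and 8.11% of the negative peaks. A wider peak has more bases with which to meet an ALKBH5 row, and the part of width in the choice was not tested.

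Being absent from the ALKBH5 lists did not mean being far from them. A gap of 0 bases, with the ALKBH5 row adjoining directly on either side, separates 735 peaks (20.2%) from the nearest ALKBH5 row on the same strand. A gap of at most 200 bases is found for 1615 peaks (44.3%) and of at most 1000 bases for 2255 (61.9%), while 754 (20.7%) lie more than 10000 bases away. In the authors' deposited tables the median effect is 0.98 (shRNA-1) and 0.93 (shRNA-2) at a gap of 0 and 1.12 and 1.16 beyond 10000 bases. The nearest ALKBH5 row carries the same gene name for 85.3% of the peaks. For positive peaks that row is positive in 2071 of 2688 cases (77.0%), and for negative peaks in 176 of 418 cases (42.1%). The 2 contrasts use different scramble groups, and these shares are a description over regions of which several can lie in 1 gene.

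**Figure D2:**
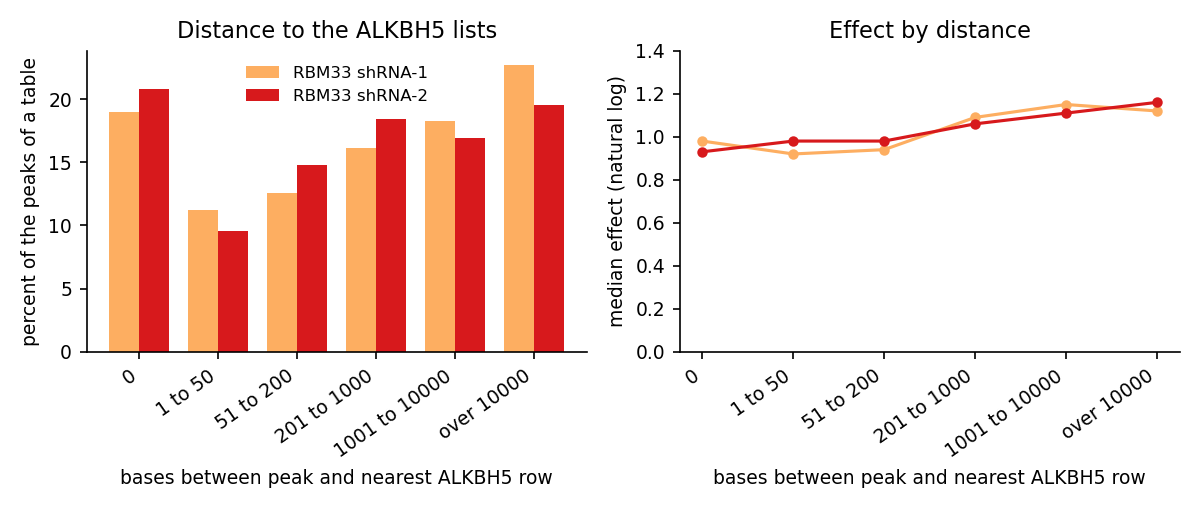
Distance in bases from each RBM33-only peak to the nearest ALKBH5 row, as the percent of the peaks of each RBM33 table (left), and the median of the authors' deposited effects in natural log units by distance (right). About 1 in 5 peaks touches an ALKBH5 row, and the medians range from 0.92 to 1.16.

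The members nearest to the limit show how fine it is. Just inside it, at a gap of 0, lie the peaks of RERE at chr1:8361094-8361293, BCAM at chr19:44820398-44820547 and GPR107 at chr9:130137329-130137478, with effects of 1.15, 2.19 and −0.76 in the authors' deposited tables. They are the ones with the lowest listed p-values among the 735 peaks tied at that gap. Just outside lie PVRIG2P with an overlap of 1 base, and PCDHGA4 and MEF2BNB-MEF2B with an overlap of 3 bases each, with effects of 1.79, 2.94 and 1.63 in the authors' deposited tables.

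The 12 peaks with the largest effects in both RBM33 tables include SF3A2, PELO, CIC and KMT2D. In 319 pairs a peak of one table overlaps a peak of the other, of which 281 are positive in both and 38 negative in both. SF3A2, a subunit of the SF3a complex of the U2 snRNP, leads: its peak at chr19:2248630-2248679 spans the annotated end of the gene, and its effects in the authors' deposited tables are 4.99 and 5.12, folds of 147 and 167. PELO, which rescues stalled ribosomes, follows with 3.83 and 3.87 in the authors' deposited tables, for a peak in 2 blocks. CIC, a transcriptional repressor, has effects of 3.74 and 3.83 there, and its peak at chr19:42273066-42273115 touches an ALKBH5 row.

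KMT2D, which methylates histone H3 lysine 4, has a split peak within chr12:49042298-49042577 with effects of 3.83 and 3.69 in the authors' deposited tables. The BCL2L13 peak shown in capitals above has 3.57 and 3.73, and ASH1L, a histone H3 lysine 36 methyltransferase, has 3.48 and 3.28 in the authors' deposited tables. The adaptor SH2B1, the ataxin-2 relative ATXN2L, CCER2, the HSP70 pseudogene HSPA7, the ribosomal RNA processing factor RRP7A and TNRC18 complete the 12 largest, with effects between 3.07 and 3.42 in the authors' deposited tables. HSPA7 resembles HSPA6 closely, and reads of the 2 may have been split between them. CCER2 and HSPA7 had mean RNA levels of 0.2185 and 0.2155 CPM in the RBM33 scramble, less than the worth of 3 reads.

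These leading folds fall on a coarse grid. The fold is a multiple of 0.5 for 88 of the 99 RBM33-only peaks with a fold of at least 20 (88.9%), against 342 of all 3643 (9.39%) and 80 of 1695 overlapping rows (4.72%). The read counts behind a peak were not used here, so no error can be set beside these folds.

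Among peaks with a negative effect in both RBM33 tables, 6 were named after their values were seen. TBX3, a T-box transcription factor, has effects of −1.29 and −2.13, and CORT, the neuropeptide cortistatin, −1.91 and −1.68 in the authors' deposited tables. The aquaporin gene AQP6 has −1.97 and −1.66, the actin nucleator JMY −1.59 and −1.55, the zinc finger gene ZBTB46 −1.71 and −1.47 and the tubulin gene TUBB6 −1.66 and −1.30 in the same authors' deposited tables. CORT and AQP6 had mean RNA levels of 0.437 and 0.434 CPM in the RBM33 scramble, about the worth of 3 reads or fewer.

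Within single tables and among genes with at least 10 CPM, the highest effects not yet named are those of ING2, AFMID and SRPK1 for shRNA-1 (4.17, 4.06 and 3.93) and of HSP90AB1, the pseudogene DDX12P and LAMB1 for shRNA-2 (4.55, 4.28 and 4.04), in the authors' deposited tables. SRPK1 phosphorylates SR splicing factors, HSP90AB1 is a cytosolic chaperone and LAMB1 is a laminin chain. The lowest are G0S2, FAM45A and LIPE-AS1 for shRNA-1 (−2.66, −2.20 and −1.98) and RIN2, TBX3 and ASAP3 for shRNA-2 (−2.20, −2.13 and −2.08) in the authors' deposited tables. G0S2, an inhibitor of the lipase ATGL, is taken up again with its RNA below. LIPE-AS1 is an antisense gene, and no source used here states whether reads were counted by strand.

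Several genes hold many separate RBM33-only regions. Of the host names, 1789 (74.4%) hold 1 region, while DIDO1, a PHD finger protein of chromatin, holds 12, SRCAP, the ATPase of a histone exchange complex, 10, CIC 9 and the corepressor RERE 8. EMC10, ERF, IRF2BPL, LARP1, SRRM2 and ZNF598 hold 7 each. DIDO1's 14 rows run from chr20:62879216 to chr20:62905200, 13 of them positive with effects from 0.57 to 2.59 in the authors' deposited tables and 1 at −1.15. The 13 rows of SRCAP are all positive (0.52 to 3.07), as are the 10 rows of CIC (0.83 to 3.83) and the 10 of RERE (0.91 to 2.77) in the authors' deposited tables. The same genes are also in the ALKBH5 tables, with 23 rows in DIDO1, 35 in SRCAP, 15 in CIC and 13 in RERE, so these are not genes listed for RBM33 alone. Regions of 1 gene share its transcripts and are not independent of each other.

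A smaller set of host genes has no ALKBH5 row at all: 353 of the 2403 names, with 455 peaks, 354 of them positive. EMC10, a subunit of the endoplasmic reticulum membrane complex, has 7 regions in 8 rows, all positive, with effects from 0.89 to 2.15 in the authors' deposited tables. ERF, an ETS family repressor, has 7 rows, all positive (0.89 to 2.33), and FOXF1, a forkhead transcription factor, has 4 (0.86 to 1.14) in the authors' deposited tables. HSPA7 has 3 (2.56 to 3.31), as does PPP2R1A, the scaffold subunit of phosphatase 2A (0.83 to 1.23), in the authors' deposited tables. ERF and CIC are neighbours on chromosome 19, with 13408 bases between them. These 353 genes are expressed at lower levels than the rest: the 331 that could be tested have a median of 17.4 CPM in the RBM33 scramble, against 51.3 CPM for hosts with an ALKBH5 row. A lower level leaves fewer reads for a call in any table, and its part in the lists was not tested.

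Along the gene span, introns included, the RBM33-only peaks gather at the 3′ end. Of 3581 peaks with a matched span, 51.5% lie in the last of 4 equal parts of the span and 18.0% in the first. The ALKBH5 rows, which are listed up to higher p-values, have 43.6% and 47.3% in the last part. Of 10 equal parts, the last holds 33.1% of the positive and 34.6% of the negative peaks, 31.1% of the overlapping RBM33 rows and 27.0% of the ALKBH5 rows. The first of the 10 holds 11.5% of the positive and 6.99% of the negative peaks. Only 38 peaks begin or end within 100 bases of the annotated 5′ end and 29 within 100 bases of the 3′ end, and 37 of those 38 are positive.

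**Figure D3:**
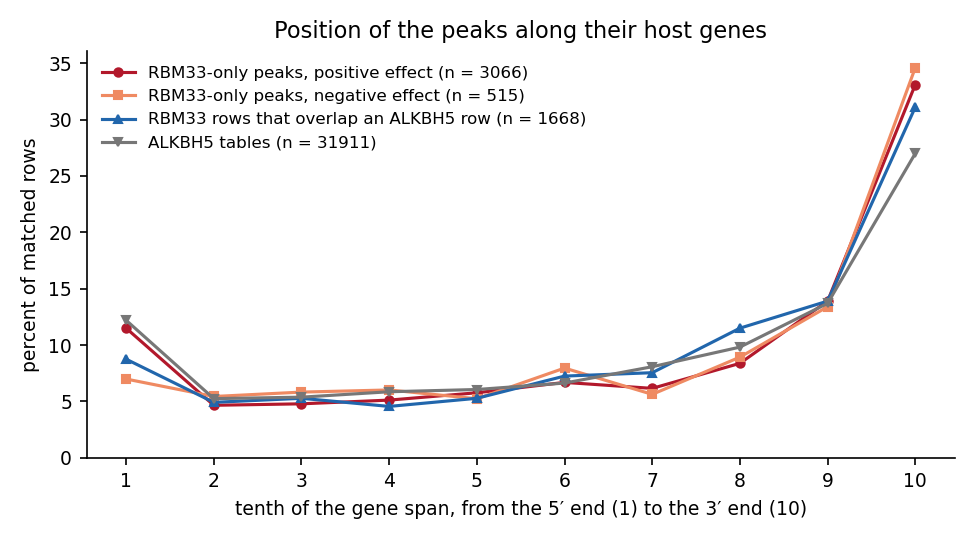
Percent of matched rows (y axis) in each of 10 equal parts of the host gene span from the 5′ end to the 3′ end (x axis), for positive and negative RBM33-only peaks, the overlapping RBM33 rows and the ALKBH5 rows. All 4 sets are highest in the last part, at 27.0% to 34.6%, with a smaller rise in the first.

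By role, the m6A machinery hosts RBM33-only peaks in 2 writers, 2 erasers and 3 readers, of 13, 2 and 15 such genes tested in RNA. Their 7 peaks are all positive, where 85.5% of all RBM33-only peaks are. Of all 18227 genes tested in RNA, 2360 host an RBM33-only peak, and of the 10811 averaging 10 CPM or more 2144 do. The host counts of the lists below stand beside the same numbers. Among the writers, KIAA1429 (VIRMA) and RBM15, both of the regulatory part of the methyltransferase complex, have 1 peak each, with effects of 1.49 and 1.34 in the authors' deposited tables. Both erasers have 1: ALKBH5 at 0.52 and FTO at 0.95 in the authors' deposited tables, at chr17:18183953-18184002 and chr16:53826319-53826368. The readers YTHDF1, SND1 and IGF2BP1 have effects of 0.99, 0.75 and 1.17, and RBM33 itself has 2 peaks, at 0.78 and 1.02, in the authors' deposited tables. All of these genes also have ALKBH5 rows, 19 in RBM33, 7 in ALKBH5 and 6 in FTO.

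In the RNA of these genes, RBM15 rose by 0.31 on the log2 scale in the RBM33 set (SE 0.07, adjusted p = 0.0016) and SND1 fell by 0.47 (SE 0.07, adjusted p = 3.5e-05). SND1 stood at 307, 302 and 268 CPM in the scramble and at 199 to 229 CPM in the 5 libraries with an RBM33 shRNA label, with no overlap. YTHDF1 fell by 0.33 (adjusted p = 0.024), a call that is lost without RBM33 shRNA-1 replicate 1 (adjusted p = 0.084) or without RBM33 scramble replicate 1 or 2 (0.13 and 0.094). FTO changed by −0.15 (SE 0.09, adjusted p = 0.28) and IGF2BP1 by −0.01 (SE 0.06, adjusted p = 0.95). Of the whole lists, 3 of 13 tested writers and 4 of 15 readers were called higher in the RBM33 set, and 1 and 3 lower. Over all 18227 genes tested, 8.50% were called higher and 9.25% lower in that contrast. All tested writers and readers averaged 10 CPM or more, and among all genes at that level 12.6% were called higher and 15.2% lower.

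Splicing and RNA-binding genes hold 84 RBM33-only peaks in 51 host genes, 79 of them positive. SF3A2 is described above, RBM26 has an effect of 3.93 and the helicase DDX47 a split peak at 2.94 in the authors' deposited tables. Of the 51 hosts, 20 were called higher and 3 lower in RNA in the RBM33 set (median log2 change 0.16), and of the whole list of 223 tested genes 72 were higher and 10 lower (median also 0.16). Over all genes tested, 8.50% were called higher and 9.25% lower in that contrast, or 12.6% and 15.2% among genes averaging 10 CPM or more. DDX47 rose by 0.61 (SE 0.13, adjusted p = 0.0015), while SF3A2 did not pass (0.25, SE 0.10, adjusted p = 0.081).

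Chromatin genes hold 71 peaks in 28 hosts, 64 of them positive, and every one of these hosts also has an ALKBH5 row. KMT2D has 9 rows, all positive (1.19 to 3.83), KMT2B, its relative, 4 (0.61 to 0.95) and EP400, a remodelling ATPase, 1 at 3.74 in the authors' deposited tables. Of the hosts, 14 were called higher and 1 lower in RNA in the RBM33 set (median log2 change 0.24), against 37 and 4 of 115 tested genes of the list (median 0.16). The shares over all genes tested were 8.50% higher and 9.25% lower, or 12.6% and 15.2% among genes averaging 10 CPM or more. KMT2B RNA rose from 53.2, 55.6 and 56.2 CPM to 85.5 to 104.5 CPM in the libraries labelled RBM33 shRNA (log2 0.73, SE 0.09, adjusted p = 3.7e-06). SRCAP rose by 0.62 (adjusted p = 1.6e-06), RERE by 0.60 (1.2e-05), TNRC18 by 0.55 (3.2e-05) and ASH1L by 0.39 (8.9e-05) on the log2 scale. EP400 passed by little (0.24, adjusted p = 0.036), and its call is lost without any of RBM33 shRNA-1 replicate 2, shRNA-2 replicate 2 and scramble replicates 2 and 3 (adjusted p from 0.065 to 0.16).

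Zinc finger genes hold 166 peaks in 110 hosts, of which 51 are negative, where 530 of all 3643 are. Their median effect is 0.78 against 1.035 over all RBM33-only peaks in the authors' deposited tables. ZBTB45 (4.25) and ZBTB47 (3.22) carry the largest positive effects of the examples, and ZNF598, which ubiquitinates collided ribosomes, has 7 positive rows (0.57 to 1.26), in the authors' deposited tables. In RNA, 21 of the 110 hosts were called higher and 3 lower in the RBM33 set, against 64 and 14 of the 566 tested genes of the list and 8.50% and 9.25% of all genes.

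Heat shock and chaperone genes, taken by symbol, hold 21 peaks in 14 hosts, 18 of them positive. HSPA1A, the inducible HSP70, has 1 region at chr6:31817464-31817513, with effects of 2.25 and 1.51 in the authors' deposited tables, and no ALKBH5 row. HSPA6 has 3.04 and 2.66 and HSP90AB1 4.55 in the authors' deposited tables. Ubiquitin system genes hold 81 peaks in 59 hosts (72 positive), small GTPases and their regulators 51 in 35 hosts (40 positive), and mTORC1 and autophagy genes 11 in 7 hosts, all positive. RPTOR, the scaffold of mTORC1, has 5 rows from 1.10 to 3.07, and its kinase MTOR 1 at 1.47 in the authors' deposited tables. RPTOR RNA rose by 0.77 on the log2 scale (SE 0.09, adjusted p = 1.4e-06), whereas MTOR changed by 0.10 (adjusted p = 0.29). Of the whole lists, 25 of 105 tested heat shock and chaperone genes were called higher and 10 lower in the RBM33 set, and 31 and 24 of 327 ubiquitin system genes. For small GTPases and their regulators these counts were 16 and 22 of 237, and for mTORC1 and autophagy genes 8 and 5 of 48. All of these counts stand beside 8.50% higher and 9.25% lower over all genes tested, or 12.6% and 15.2% among genes averaging 10 CPM or more.

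The p53 target list holds 7 peaks in AEN, BBC3, GADD45A, SESN2 and 1 further gene, all positive, and none of these 5 hosts was called in RNA. Of the whole list of 17 tested p53 targets, 6 were called higher and 1 lower in the RBM33 set (median log2 change 0.33), where 8.50% and 9.25% of all genes were. Immediate early genes hold 3 positive peaks: FOS has 1 at 2.86 and JUND 2 at 1.15 and 1.72 in the authors' deposited tables. FOS RNA was 2.59, 2.1 and 0.681 CPM in the scramble and 6.67 to 10.9 CPM in the libraries labelled RBM33 shRNA, and rose by 1.75 on the log2(CPM + 1) scale (SE 0.29, adjusted p = 0.00015). JUND rose by 0.36 (SE 0.08, adjusted p = 0.0021). Of the 19 tested immediate early genes, 8 were called higher and 1 lower (median log2 change 0.03).

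The authors also deposited tables of m6A levels, a fraction with the shRNA and in the control, for peaks whose level changed. The fractions are given here in percent. No source used here says how they were computed, so they are not read as the share of RNA molecules that is methylated. These level tables differ in size, with 721 rows for ALKBH5 shRNA-1, 182 for ALKBH5 shRNA-2, 20 for RBM33 shRNA-1 and 18 for RBM33 shRNA-2. RBM33-only peaks overlap 12 genes of the ALKBH5 shRNA-1 table, none of the ALKBH5 shRNA-2 table, 1 gene of the RBM33 shRNA-1 table and 3 of the RBM33 shRNA-2 table. A peak can thus be missing from the ALKBH5 effect lists and still overlap a region listed with a changed level under an ALKBH5 shRNA. For UROD and PGLS peak and level region have the same coordinates. Other level regions are wider: that of POLR2A runs from chr17:7512882 to chr17:7514080 and shares 50 bases with each RBM33-only peak it overlaps. Such a level also covers bases outside the RBM33-only peak. In the ALKBH5 shRNA-1 level table, 7 of the 12 genes rose and 5 fell. These are called by the authors' adjusted p-values, from 0.0013 to 0.082 over the 12 genes. UROD, an enzyme of haem synthesis, went from 23.2% to 61.0% (adjusted p = 0.0089), PGLS, of the pentose phosphate pathway, from 24.4% to 90.2%, and SLC3A2, the heavy chain of amino acid transporters, from 27.3% to 49.2%, in the authors' deposited table.

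HSPA5, the endoplasmic reticulum chaperone BiP, went from 14.2% to 27.0% (adjusted p = 0.0052) and POLR2A, the largest RNA polymerase II subunit, from 66.2% to 79.0% in the same authors' deposited table. All of these have positive effects in the RBM33 tables, UROD for example 1.62 and 1.44 in the authors' deposited tables. Of the 5 genes whose level fell under ALKBH5 shRNA-1, 4 have positive RBM33 effects. RTN4, a reticulon, fell from 71.6% to 54.0% (adjusted p = 0.0043), MARCKS, a protein kinase C substrate, from 71.6% to 50.4% (0.0013) and ADO, a thiol dioxygenase, from 82.7% to 69.7% in the authors' deposited table. HIST2H3D, of which bases 13 to 42 are printed above, went from 51.5% to 36.9% (adjusted p = 0.080), with an RBM33 effect of −1.29, in the authors' deposited tables.

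In the RBM33 level tables, GPR107, a membrane protein of the Golgi, fell from 84.7% to 64.3% in the shRNA-1 table (adjusted p = 0.00019), the same sign as its effects of −0.76 and −0.77, in the authors' deposited tables. GNL3 stood at 54.5% in the scramble and 34.8% for shRNA-2 (adjusted p = 0.088), with 4 rows, all negative, from −0.81 to −0.65 in the authors' deposited tables. TRABD stood likewise at 75.5% and 94.4% (adjusted p = 0.099) and ARIH1, a ubiquitin ligase, at 83.0% and 88.4% (adjusted p = 0.062) in the authors' deposited table. These levels come from the m6A libraries of the contrast that chose the peaks and add no independent support. In RNA, GPR107 and GNL3 changed by 0.12 and 0.03 on the log2 scale (adjusted p = 0.39 and 0.84), so neither was called.

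The host genes were then read in the RNA libraries. The deposited peaks and the RNA come from the same comparison of cells, so the counts are given as a description beside the share over all genes. Of 2369 host genes matched to the RNA table, 2360 could be tested. In the RBM33 set 331 (14%) were called higher and 341 (14.4%) lower, where 8.50% and 9.25% of all genes tested were. Hosts are expressed more than other genes, with a median of 44.8 CPM in the RBM33 scramble against 16 CPM for all genes tested. Among genes averaging 10 CPM or more the shares came closer: 16.2% of 2144 hosts higher and 16.2% lower, against 12.6% and 15.2% of all such genes. In the ALKBH5 set, 286 hosts (12.1%) were called higher and 273 (11.6%) lower, against 7.93% and 7.18% of all genes, or 14.7% and 14.3% against 12.8% and 12.9% from 10 CPM on. The median log2 change over the hosts was −0.01 in the RBM33 set, the same as over all genes. The count of hosts called lower in the RBM33 set is 210 without RBM33 scramble replicate 1 and 218 without replicate 2. In the ALKBH5 set it is 177 and 170 without ALKBH5 scramble replicate 1 or 2.

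Hosts were also counted by the sign of their peaks. Of 1935 hosts with positive peaks only, 258 (13.3%) were called higher and 315 (16.3%) lower in the RBM33 set, with a median log2 change of −0.03. Of 363 hosts with negative peaks only, 57 (15.7%) were higher and 21 (5.79%) lower, with a median of 0.08. From 10 CPM on, the negative hosts were at 19.8% higher and 8.19% lower, and the positive hosts at 15.2% and 17.7%, against the 12.6% and 15.2% of all genes given above. In the ALKBH5 set the negative hosts stood at 8.54% higher and 10.2% lower, against 7.93% and 7.18% of all genes, and from 10 CPM on at 11.9% and 13.0%, against 12.8% and 12.9%. No source at hand states how the deposited effects allow for the level of the RNA, so peaks and RNA are not read as independent measurements. Of the 331 tested hosts without an ALKBH5 row, 27 (8.16%) were higher and 53 (16%) lower in the RBM33 set, against 8.50% and 9.25% of all genes. From 10 CPM on these hosts were at 10.8% and 19.4%, against 12.6% and 15.2%.

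**Figure D4:**
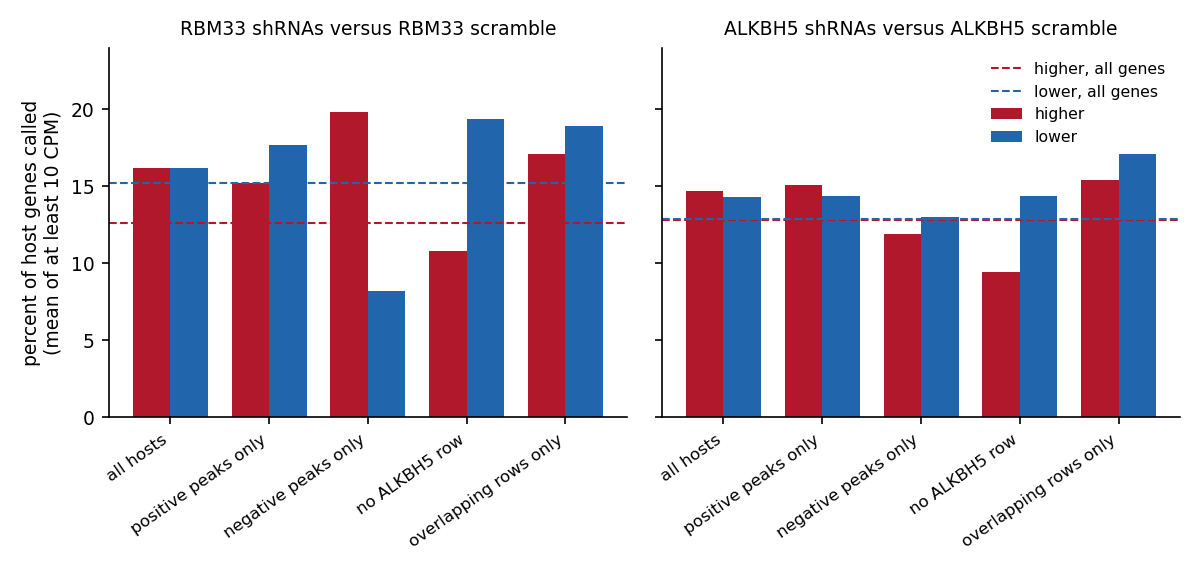
Percent of host genes averaging 10 CPM or more that were called higher (red) or lower (blue) by limma at an adjusted p under 0.05 (y axis), for sets of hosts (x axis) in the RBM33 contrast (left) and the ALKBH5 contrast (right), with dashed lines for all genes tested at that level. In the RBM33 contrast, hosts of negative peaks stand at 19.8% higher and 8.19% lower, and hosts of positive peaks at 15.2% and 17.7%.

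The largest rises in host RNA were in AMH, HSPA1A, FBXL19-AS1, HSPA6 and FOS. In the RBM33 scramble libraries AMH had 4.85, 2.75 and 4.77 CPM, against 65.0 and 56.2 CPM in the libraries labelled shRNA-1 and 52.5, 55.5 and 63.3 CPM in those labelled shRNA-2, with no overlap. It rose by 3.57 on the log2(CPM + 1) scale (SE 0.15, adjusted p = 2.6e-14). AMH begins 653 bases after the end of SF3A2 on the same strand, and the SF3A2 peak with the largest effects of all RBM33-only peaks, the AMH peak printed above (2.13 and 2.28 in the authors' deposited tables) and a further AMH peak at chr19:2249464-2249513 (1.42 in the authors' deposited table) follow each other there. The gene has 8 ALKBH5 rows as well. Whether transcripts read from SF3A2 into AMH was not tested.

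HSPA1A went from 41.4, 37.7 and 35.1 CPM to 444 and 405 CPM (labelled shRNA-1) and 452, 418 and 444 CPM (labelled shRNA-2) (log2 3.47, SE 0.08, adjusted p = 1.5e-19). HSPA1B is a near-identical copy, so reads of the 2 genes may be split in counting. HSPA6 rose by 2.03 (SE 0.28, adjusted p = 1.8e-05) from at most 1.29 CPM to between 3.82 and 6.84 CPM. FBXL19-AS1 rose by 2.07 (SE 0.24, adjusted p = 1.8e-06). It overlaps FBXL19 only at the starts of the 2 genes, on opposite strands, and reads within that overlap cannot be told apart without strand.

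All of these also rose under the ALKBH5 shRNAs. AMH rose by 3.26 there (SE 0.15, adjusted p = 3.3e-13) and HSPA1A by 3.70 (SE 0.08, adjusted p = 7.0e-20). FBXL19-AS1 rose by 2.12 (adjusted p = 3.8e-06), HSPA6 by 3.46 (2.1e-08) and FOS by 2.1 (4.1e-05). For none of the 5 did the difference between the sets pass the test, with adjusted p from 0.060 for HSPA6 to 0.97 for FBXL19-AS1.

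The largest falls were in G0S2, CDH12, BTBD2, SCRN2 and KCNA3. G0S2 went from 33.1, 42.2 and 27.9 CPM to 3.62 and 5.35 CPM (labelled shRNA-1) and 5.71, 2.56 and 2.93 CPM (labelled shRNA-2) (log2 −2.82, SE 0.22, adjusted p = 4.6e-09). Its peak at chr1:209675678-209675727 also has the lowest effect of the shRNA-1 table among genes of at least 10 CPM (−2.66 in the authors' deposited table). G0S2 fell by 2.08 under the ALKBH5 shRNAs as well (SE 0.23, adjusted p = 1.3e-06).

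BTBD2 fell by 1.31 (SE 0.11, adjusted p = 1.5e-08) from 72.1 to 76.1 CPM down to 26.7 to 33.6 CPM, and its 3 peaks are positive (0.74 to 0.95 in the authors' deposited tables). SCRN2, a secernin, fell by 1.30 (SE 0.20, adjusted p = 4.9e-05), CDH12, a cadherin, by 1.35 (SE 0.28, adjusted p = 0.0017) and KCNA3, a voltage-gated potassium channel, by 1.19 (SE 0.29, adjusted p = 0.0054). KCNA3 had at most 3.23 CPM in any scramble library. The ALKBH5 set gave −0.74 for BTBD2 (adjusted p = 0.00014) and −0.64 for SCRN2 (0.036), and no call for CDH12 (−0.73, 0.10) or KCNA3 (−0.61, 0.18).

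HSPA5 and KMT2D show RNA and peaks in genes with high levels. HSPA5 went from 936, 886 and 1004 CPM to 447 and 468 CPM (labelled shRNA-1) and 485, 420 and 425 CPM (labelled shRNA-2) (log2 −1.06, SE 0.07, adjusted p = 3.8e-11), while its 3 peaks are positive (0.65 to 1.54 in the authors' deposited tables). KMT2D went from 152, 152 and 147 CPM to 332 and 316 CPM (labelled shRNA-1) and 309, 302 and 326 CPM (labelled shRNA-2) (log2 1.08, SE 0.07, adjusted p = 7.8e-11), and its 9 peaks are positive. DIDO1, with the most regions, rose from between 68.8 and 70.2 CPM to between 115 and 137 CPM (log2 0.83, SE 0.08, adjusted p = 6.4e-08). Positive peaks thus occur on host RNA that rose and on host RNA that fell.

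Hosts with many positive peaks did not all move. EMC10 changed by 0.22 (SE 0.12, adjusted p = 0.24), ERF by −0.27 (SE 0.16, adjusted p = 0.28), LARP1, which binds the messengers of ribosomal proteins, by 0.12 (adjusted p = 0.17) and ZNF598 by −0.21 (adjusted p = 0.087). Of the negative genes named above, TBX3 rose from 26.5, 30.6 and 27.8 CPM to between 37.9 and 51.5 CPM (log2 0.58, SE 0.10, adjusted p = 0.00035), and JMY (0.04, adjusted p = 0.79) and ZBTB46 (0.13, adjusted p = 0.69) were not called. TUBB6 was also called as changed in the RBM33 set, a call that is lost under some of the alternatives.

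**Figure D5:**
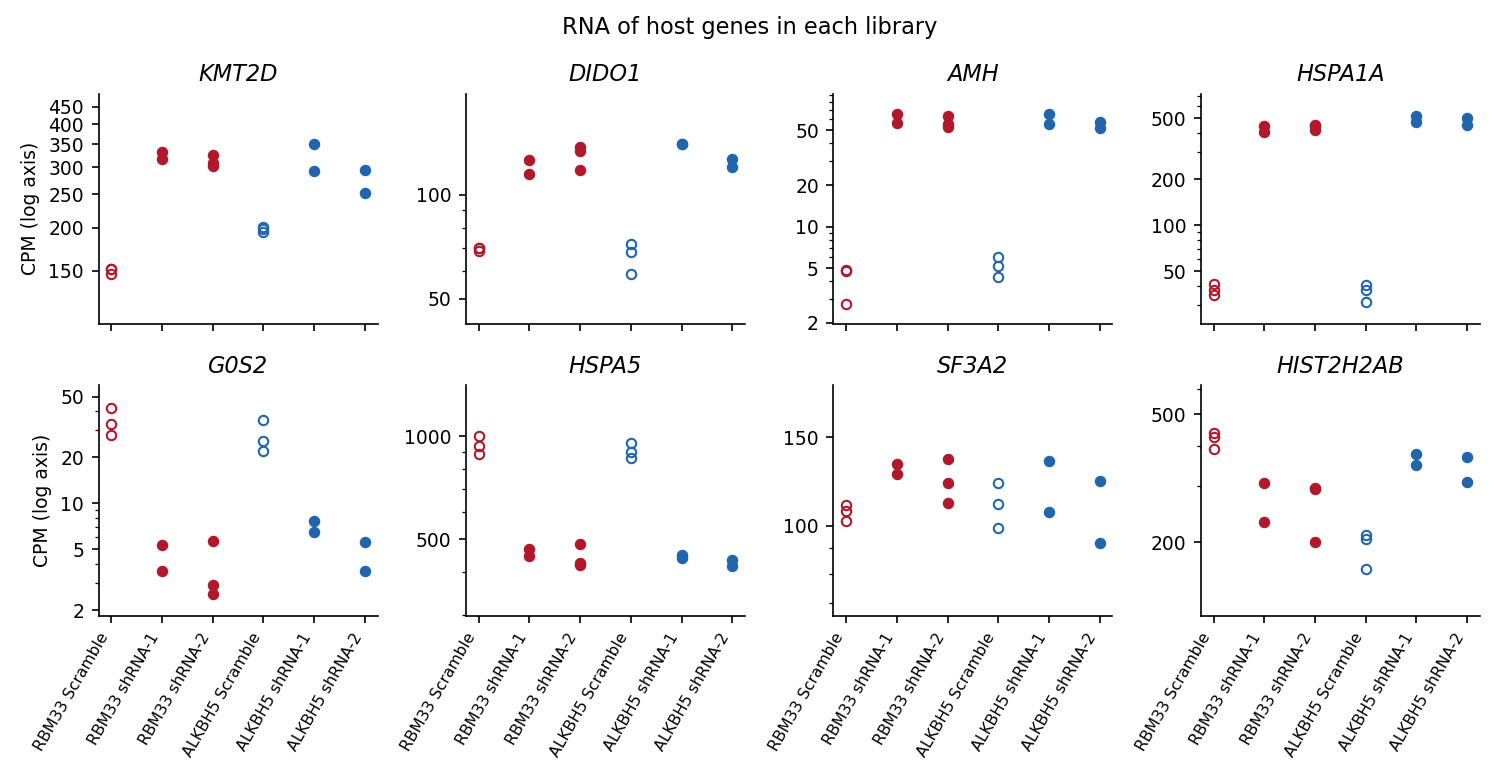
RNA level in CPM (log axis) of 8 host genes in each library, 1 point per library, for the RBM33 set (red) and the ALKBH5 set (blue), with scramble libraries as open points. KMT2D, DIDO1, AMH and HSPA1A lie above their scramble and G0S2 and HSPA5 below it in both sets, SF3A2 overlaps its scramble in the ALKBH5 set, and HIST2H2AB is lower than its scramble in the RBM33 set and higher in the ALKBH5 set.

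The difference between the RBM33 and the ALKBH5 changes in RNA was tested in the same fit. Of the 2360 hosts, 36 (1.53%) were called with a higher and 67 (2.84%) with a lower change in the RBM33 set, against 0.686% and 2.01% of all genes. From 10 CPM on, these shares were 2.43% and 4.24%, against 1.70% and 4.05% of all such genes. Without RBM33 scramble replicate 1 or 2 the higher differences number 16 each and the lower ones 36 and 39. Higher differences number 17 and 23 without ALKBH5 scramble replicate 1 or 2, 21 without ALKBH5 shRNA-2 replicate 1 and 22 without RBM33 shRNA-1 replicate 1, and lower ones 40 without ALKBH5 scramble replicate 1. DESeq2 on the recovered counts called 80 higher and 102 lower. The largest differences were lower in the RBM33 set: HIST2H2AB, a histone H2A gene, by −1.52 (SE 0.16, adjusted p = 6.1e-06), CERS1, a ceramide synthase, by −1.07, OXLD1 by −1.06 and PPP1R35, a regulatory subunit of phosphatase 1, by −1.05.

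RBM33 scramble libraries had 439, 391 and 424 CPM of HIST2H2AB, and the gene was at 201.4 to 307 CPM in the libraries labelled RBM33 shRNA, but at 166, 211 and 204 CPM in the ALKBH5 scramble and at 307 to 376 CPM under the ALKBH5 shRNAs. The 2 scramble groups of this gene do not overlap each other. Its 1 region fell in both RBM33 tables (−0.64 and −0.61 in the authors' deposited tables), and no ALKBH5 row lies in the gene. The sets differ in their scramble groups, and no source used here says whether they were grown together, so set and target cannot be told apart for such a gene.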

How the data were processed

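The authors deposited 4 tables of changed m6A peaks with effects on a natural log scale and p-values, 4 tables of m6A levels as a fraction with adjusted p-values, and 1 table of CPM per gene and library, a signal scaled by the authors to a normalized library size. The natural log base was read from the files: 7.49% and 7.86% of the deposited RBM33 effects are natural logs of multiples of 0.5, against 0.0% as log2. Per the submitters' processing notes, cutadapt 1.18, HISAT2 2.1.0, featureCounts (Subread 1.6.4), edgeR 3.24.3 and DESeq2 were used with hg38. The caller of the peaks was not given in the sources used here. Columns of other samples numbered 0, and 3 RNA libraries were not analysed here.

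Peak blocks were compared by chromosome and strand, with any shared base counted as overlap. Hosts were matched by name and place to the genes of the CPM table, whose gene spans were used, with RefSeq synonyms for 156 rows. In all, 3598 of 3643 rows matched, 17 of them outside the gene by up to 5000 bases. RNA was tested with limma 3.58.1 (R 4.3.3) with a trend on log2(CPM + 1), for 18227 genes averaging 1 CPM or more, in 1 fit of 15 libraries with 9 residual degrees of freedom, with Benjamini-Hochberg adjustment over all genes tested. A gene was called at an adjusted p under 0.05. Fold changes on this scale understate those of low genes. The deposited CPM gave whole read counts for 100% of values (within 0.1 read), and these recovered counts entered edgeR 4.0.16 and DESeq2 1.42.0 as alternatives. On data simulated for the RBM33 comparison with 18227 genes, of which 17983 passed the filter, limma recovered 81% of genes changed 2-fold and 100% of those changed 4-fold. The changed genes were drawn only from those above a minimum read count, so these rates do not cover the lowest genes tested. A count of 3 reads is worth 0.43 to 0.659 CPM.

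Genes were named by rule: the 12 largest smaller absolute effects in both tables, the 3 highest and 3 lowest per table, the 6 lowest p-values, up to 4 examples per list, the 5 largest RNA rises and falls, the 4 largest differences, 6 start windows, 3 neighbours on each side of the limit, and ALKBH5, RBM33 and FTO. Negative peaks in both tables, genes with many regions or without ALKBH5 rows, genes of the level tables and the AMH sequence were added after their values were seen. The members and lists were chosen with earlier results of these data known. The symbol prefix EP of the chromatin list was read as EP300 and EP400 only. Alternatives covered the pseudocount, the filter, the scaling, the tool, each library in turn, a replicate block and the overlap rule.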

Additional observations from a re-analysis of the deposited data

Results flagged for a closer look

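Of the 2360 host genes tested, 36 had a higher and 67 a lower change in RNA in the RBM33 than in the ALKBH5 set. Among these, 10 belong to the genes named here, by the test of the difference (limma, RBM33 change minus ALKBH5 change, log2 scale, adjusted over all genes). KMT2D rose in both sets, by 1.08 and 0.58, a difference of 0.50 (SE 0.10, adjusted p = 0.0058). RBM15 rose by 0.31 in the RBM33 set and changed by −0.05 in the ALKBH5 set, a difference of 0.37 (SE 0.09, adjusted p = 0.034). ALKBH5 itself differed by 0.47 (SE 0.11, adjusted p = 0.023), being the target in 1 of the sets only.

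The other 7 differences are negative. HIST2H2AB fell by 0.66 in the RBM33 set and rose by 0.86 in the ALKBH5 set, a difference of −1.52 (SE 0.16, adjusted p = 6.1e-06). HIST2H3D fell by 0.67 in the RBM33 set and changed by 0.06 in the ALKBH5 set (difference −0.73, SE 0.13, adjusted p = 0.0021). CKB, the brain-type creatine kinase, fell in both, by 0.72 and 0.25 (difference −0.47, SE 0.09, adjusted p = 0.0036). UROD fell by 0.60 in the RBM33 set and changed by 0.18 in the other (difference −0.78, SE 0.17, adjusted p = 0.013). OXLD1 fell by 0.70 and changed by 0.36 (difference −1.06, SE 0.18, adjusted p = 0.0020). CERS1 fell by 0.90 and changed by 0.17 (difference −1.07, SE 0.27, adjusted p = 0.030), and PPP1R35 fell by 0.65 and changed by 0.40 (difference −1.05, SE 0.25, adjusted p = 0.020). In each of these 7 genes except CKB the shift of the ALKBH5 set has the opposite sign, and it passed the test for HIST2H2AB only.

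The calls of 4 of the differences are lost when 1 library is left out. The highest adjusted p is then 0.12 for RBM15 (without RBM33 scramble replicate 2), 0.080 for ALKBH5 (without ALKBH5 scramble replicate 2), 0.10 for CERS1 (without RBM33 scramble replicate 3) and 0.070 for PPP1R35 (without ALKBH5 scramble replicate 3). No other cause of these differences was tested.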

How the results depend on the processing

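Of 158 alternative values for the counts and shares that answer a comparison, 134 stayed within 1.5 times the count or within their interval. Some of these could hardly move. A limit of p under 0.01 keeps all 3643 peaks, since no RBM33 row is listed above 0.00108. Leaving out a library of 1 set reaches the contrast of the other set mainly through the shared spread. An absolute effect of at least 1 kept 2132 peaks (89.6% positive). Of the alternatives chosen after seeing the data, p under 0.0001 kept 577 (91.0%) and at least 200 bases from any ALKBH5 row 2127. Peaks at gene 5′ ends numbered 10 within 50 bases and 161 within 300, and at 3′ ends 4 and 167, against 38 and 29 within 100. DESeq2 called 80 hosts with a higher and 102 with a lower difference between the sets, against 36 and 67 with limma.

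Leaving out 1 library at a time gave 243 to 336 hosts higher and 210 to 346 lower in the RBM33 set, and 194 to 294 higher and 170 to 282 lower in the ALKBH5 set. It gave 16 to 41 with a higher and 36 to 81 with a lower difference. Counts moved by over 1.5 times without RBM33 scramble replicate 1 (210 lower) or 2 (218), without ALKBH5 scramble replicate 1 (177 lower) or 2 (170), and, for higher differences, without RBM33 scramble replicate 1 or 2 (16 each), ALKBH5 scramble replicate 1 (17) or 2 (23), ALKBH5 shRNA-2 replicate 1 (21) or RBM33 shRNA-1 replicate 1 (22). Lower differences moved so without RBM33 scramble replicate 1 (36) or 2 (39) or ALKBH5 scramble replicate 1 (40). The cause was not tested beyond the smaller number of samples.

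Deviations from the group mean had correlations of −0.08 to 0.07 between libraries with the same number. Each group holds so few libraries that the deviations within it are tied to each other. These low correlations therefore cannot decide whether the numbers pair the libraries. With the replicate number as a block, 321 hosts were higher and 312 lower in the RBM33 set, 268 and 247 in the ALKBH5 set, and 26 and 55 for the difference.

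Of 58 single-gene results under 1324 alternatives, 1247 kept direction and call, 75 lost the call, 2 gained it (SF3A2, adjusted p = 0.049) and 0 reversed. The changed calls belong to 18 results, among them HSP90AB1, LAMB1, BCAM, IRF2BPL, TUBB6 and RNF168. Depth limits the low genes: at 4493849 reads 3 reads are 0.659 CPM.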
